A study of Mus musculus with 36 samples.

Results

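Fatty acid oxidation in liver was examined through 35 named genes that encode the enzymes of mitochondrial, peroxisomal and microsomal (omega) fatty acid oxidation, the carnitine shuttle and the ketone body reactions, most of them known targets of the nuclear receptor PPARalpha. A member was taken by its gene name and kept where its reads summed to at least 100 counts over the 36 livers. This left 34 of the 35 genes, out of 17994 genes tested and 54532 genes in the count table. Eci3, a peroxisomal enoyl-CoA isomerase, had 35 counts in all and was not tested. The kept members fall into 15 genes of mitochondrial beta-oxidation and the carnitine shuttle, 2 ketone body enzymes, 8 peroxisomal genes, 4 genes whose products are found in both organelles and 5 omega-oxidation genes of the Cyp4a family.

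Long-chain fatty acids enter mitochondria as carnitine esters, which Cpt1a forms at the outer membrane and Cpt2 turns back into acyl-CoA inside. Peroxisomes shorten very long and branched chains and pass the products on, partly as carnitine esters made by Crot and Crat, while Cyp4a enzymes of the endoplasmic reticulum hydroxylate the omega end of the chain. PPARalpha binds DNA as a heterodimer with RXR, is activated by fatty acids, and drives many of these genes in hepatocytes, most strongly in the fasted liver. Thyroid hormone receptors share RXR as a partner and act on several of the same genes, Cpt1a among them.

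The livers came from male mice, 2 to 3 months old, which were homozygous (THRB-/-, here THRB-KO) or heterozygous (THRB+/-, here THRB-WT) for a Thrb allele that affects both receptor isoforms and impairs DNA binding. The controls therefore also carried 1 copy of the altered allele. All mice were kept under a light-dark cycle with chow ad libitum, and 3 mice per genotype were sampled at each of 6 zeitgeber times (ZT), every 4 h from ZT2 to ZT22, with ZT0 as lights on. The same-lettered mice (a, b, c) of different groups are different animals.

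Library totals ran from 29063273 to 42530551 counts. Thrb itself was at 24.3 to 38.5 CPM (counts scaled to the library's size, with TMM factors) in THRB-WT and 26.2 to 37.7 CPM in THRB-KO, so gene counts, which do not separate the altered part of the transcript, gave no check of the genotype labels. The 6 hepatocyte markers summed to 65213 to 91391 CPM in THRB-WT and 74679 to 97454 CPM in THRB-KO. Kupffer markers summed to 125 to 383 and 132 to 257 CPM, endothelial markers to 56.8 to 110 and 66.0 to 114 CPM, stellate markers to 77.6 to 196 and 116 to 228 CPM, and biliary markers to 6.81 to 18.3 and 5.38 to 13.4 CPM. Adipocyte, pancreatic and lymphocyte markers summed to at most 0.117, 0.822 and 2.81 CPM, with 1 of the 3 adipocyte markers at 0 in every library. No gene of any marker list passed the genotype test. In whole liver, fewer cells of a type and less RNA per cell cannot be told apart.

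RefSeq promoter sequence (GRCm38.p6) was matched for 25 of the 34 members. The sequences shown are those of 5 rhythmic members whose peaks are spread over the day, in the order of their peak time in THRB-WT from ZT2 to ZT21. Each is the stretch before the RefSeq start that lies outside the gene as the count table places it, and capitals mark the nuclear receptor hexamer AGGNCA on either strand. Their positions are chr5:8997325-8997396 on the minus strand for Crot, chr16:31422047-31422279 on the plus strand for Bdh1, chr19:3323051-3323300 on the plus strand for Cpt1a, chr7:79743132-79743381 on the minus strand for Pex11a and chr4:107923611-107923839 on the minus strand for Cpt2.
Crot: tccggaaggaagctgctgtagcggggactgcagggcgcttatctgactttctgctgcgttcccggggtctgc
Bdh1: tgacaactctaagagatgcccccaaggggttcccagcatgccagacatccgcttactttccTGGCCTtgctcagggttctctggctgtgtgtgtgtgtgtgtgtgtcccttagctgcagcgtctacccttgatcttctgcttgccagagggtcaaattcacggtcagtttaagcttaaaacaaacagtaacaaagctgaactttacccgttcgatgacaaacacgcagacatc
Cpt1a: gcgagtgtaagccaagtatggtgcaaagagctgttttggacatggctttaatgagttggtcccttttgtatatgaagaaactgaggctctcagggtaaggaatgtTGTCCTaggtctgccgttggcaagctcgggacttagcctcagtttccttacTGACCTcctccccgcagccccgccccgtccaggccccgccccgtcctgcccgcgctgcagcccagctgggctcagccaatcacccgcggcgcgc
Pex11a: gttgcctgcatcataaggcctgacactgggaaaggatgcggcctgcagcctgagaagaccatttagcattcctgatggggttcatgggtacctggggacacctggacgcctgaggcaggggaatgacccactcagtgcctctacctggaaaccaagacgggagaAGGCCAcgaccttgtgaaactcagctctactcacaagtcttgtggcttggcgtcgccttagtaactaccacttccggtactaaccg
Cpt2: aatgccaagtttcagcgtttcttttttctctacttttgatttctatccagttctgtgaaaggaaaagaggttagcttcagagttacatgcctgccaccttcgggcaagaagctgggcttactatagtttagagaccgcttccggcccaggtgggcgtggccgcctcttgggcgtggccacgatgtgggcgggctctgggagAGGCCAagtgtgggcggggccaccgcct
The hexamer was found 2 times in the Cpt1a stretch, 1 time in those of Bdh1, Pex11a and Cpt2, and not in the 72 bases of Crot. Over the 250 bases before the start, 17 of the 25 matched members (68%) held it, against 51.3% of all 32851 promoters. The units differ, since a member counted where any of its promoters held the hexamer (26 promoters for the 25 members). The share over all counts single promoters. Complete elements were searched in the 300-base windows that also include the first 50 bases after the start. None of the 25 members held the PPAR element DR1 (AGGNCA repeated with 1 base between, in 0.381% of all promoters), the thyroid hormone element DR4 (AGGNCA repeated with 4 bases between, 0.253%), the clock E-box CACGTG (7.15%) or the D-box TTANGTAA (2.32%), each searched on both strands. The hexamer is a part of DR1 and DR4, so these searches overlap. DR1 and DR4 in this exact form are so rare among all promoters that finding none in 25 members is uninformative. Variant forms and sites outside these windows were not searched.

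The members differed widely in abundance and in how much they varied between mice of a group. By length-normalised level (TPM, counts per gene length scaled to a common total, median of the 18 THRB-WT livers), the mitochondrial thiolase Acaa2 stood first at 1239 TPM, followed by the peroxisomal thiolase Acaa1b at 1097 TPM and the omega-hydroxylase Cyp4a12a at 413 TPM. The electron transfer flavoprotein subunit Etfa was at 367 TPM and the auxiliary enzymes Ech1 and Eci1, which rearrange double bonds of unsaturated chains, at 252 and 215 TPM. At the low end were Crat at 16.9 TPM, the branched-chain acyl-CoA oxidase Acox3 at 6.20 TPM and Cyp4a31 at 2.94 TPM. The mitochondrial members spanned 45.5 to 1239 TPM, with the trifunctional protein subunit Hadhb lowest.

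Spread between mice of the same genotype and time was largest for Cyp4a14, Cyp4a31 and Cyp4a10. The SD of log2 CPM within groups had a median of 0.68 over the 5 omega-oxidation members and of 0.11, 0.11, 0.23 and 0.18 over the mitochondrial, ketone body, peroxisomal and dual-organelle members, against 0.26 over all genes tested. Cyp4a14 stood at 1.09 (the 99.2 percentile of all genes), Cyp4a31 at 0.77 and Cyp4a10 at 0.68. The other omega-oxidation members, Cyp4a32 (0.35) and Cyp4a12a (0.31), lay below the peroxisomal dienoyl-CoA reductase Decr2 (0.40) and near Acaa1b (0.29). Acaa2, Etfa and the peroxisomal D-bifunctional enzyme Hsd17b4 were the least variable, at 0.08 each (0.083, 0.085 and 0.085).

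A 24-h rhythm was called for 15 of the 34 members in THRB-WT (44.1%) and for 13 in THRB-KO (38.2%) by edgeR's quasi-likelihood test of the sine and cosine terms (Benjamini-Hochberg adjusted p under 0.05), where the shares over all genes tested were 35.1% and 31.5%. Rhythms in both genotypes were called for 11 members (32.4%, against 24.5% of all genes), and 17 members were called in at least 1 genotype. By group, the calls in THRB-WT and THRB-KO numbered 6 and 5 of 15 for the mitochondrial genes, 1 and 1 of 2 for the ketone body enzymes, 3 and 4 of 8 for the peroxisomal genes, 3 and 3 of 4 for the dual-organelle genes, and 2 and 0 of 5 for the omega-oxidation genes. The median fitted amplitude in THRB-WT was 0.09 (log2) for the mitochondrial members, 0.18 for the peroxisomal, 0.30 for the dual-organelle and 0.34 for the omega-oxidation members, against 0.21 over all genes.

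The 4 carnitine-handling enzymes were rhythmic in both genotypes, with Crot, Cpt1a and Cpt2 peaking hours apart and Crat peaking close to Cpt2. Crot, which makes medium-chain acylcarnitines in peroxisomes, had the largest amplitude of the members. In THRB-WT its 3 mice were at 591, 477 and 541 CPM at ZT2 and at 160, 186 and 144 CPM at ZT14, a 3.28-fold difference between the group means of 537 ± 57.4 and 164 ± 21.6 CPM (SD, n = 3). In THRB-KO the mice were at 609, 493 and 546 CPM at ZT2, at 540, 591 and 546 CPM at ZT6, and at 175, 184 and 168 CPM at ZT14. The highest group mean was that of ZT2 in THRB-WT and of ZT6 in THRB-KO (559 ± 27.8 CPM, against 549 ± 57.7 CPM at ZT2), and the lowest was that of ZT14 in both, with no overlap between the ZT2 and ZT14 mice. The cosine fit peaked at ZT2.49 (SE 0.351 h) in THRB-WT and ZT3.09 (SE 0.373 h) in THRB-KO (edgeR adjusted p = 2.57e-09 and 3.38e-09).

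Cpt1a, the controlling step of mitochondrial fatty acid entry, peaked late in the light phase. Its THRB-WT mice were at 297, 398 and 329 CPM at ZT10 and at 142, 175 and 147 CPM at ZT22, with group means of 341 ± 51.7 and 155 ± 17.6 CPM (SD, n = 3). The THRB-KO mice were at 335, 473 and 319 CPM at ZT10, and their lowest group mean was 176 ± 39.8 CPM at ZT18. Peak times were ZT9.61 (SE 0.319 h) and ZT9.63 (SE 0.547 h), and amplitudes 0.63 in both genotypes (edgeR adjusted p = 1.07e-07 and 1.45e-07).

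Cpt2, the later acyltransferase of the shuttle, ran almost opposite to Cpt1a. The THRB-WT mice were at 131, 129 and 122 CPM at ZT10, where Cpt1a was highest, and at 166, 180 and 184 CPM at ZT22, where Cpt1a was lowest. The group means of 128 ± 4.95 and 177 ± 8.99 CPM (SD, n = 3) differed 1.38-fold in THRB-WT, and the highest and lowest means in THRB-KO, 174 ± 8.04 CPM at ZT18 and 136 ± 14.1 CPM at ZT10, differed 1.29-fold. The fitted Cpt2 peak came 11.4 h after that of Cpt1a in THRB-WT (SE 0.674 h) and 10.2 h after it in THRB-KO (SE 0.853 h). The Cpt1a peak in turn came 7.12 h (SE 0.475 h) and 6.54 h (SE 0.663 h) after that of Crot. Crat, the acetyl-carnitine enzyme of both organelles, peaked close to Cpt2 at ZT20.3 and ZT19.0, with its lowest group means at ZT10 (29.1 ± 10.02 CPM in THRB-WT and 35.4 ± 8.46 CPM in THRB-KO) and its highest at ZT18 in THRB-WT (61.3 ± 7.64 CPM) and ZT22 in THRB-KO (67.9 ± 17.3 CPM).

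**Figure D1:**
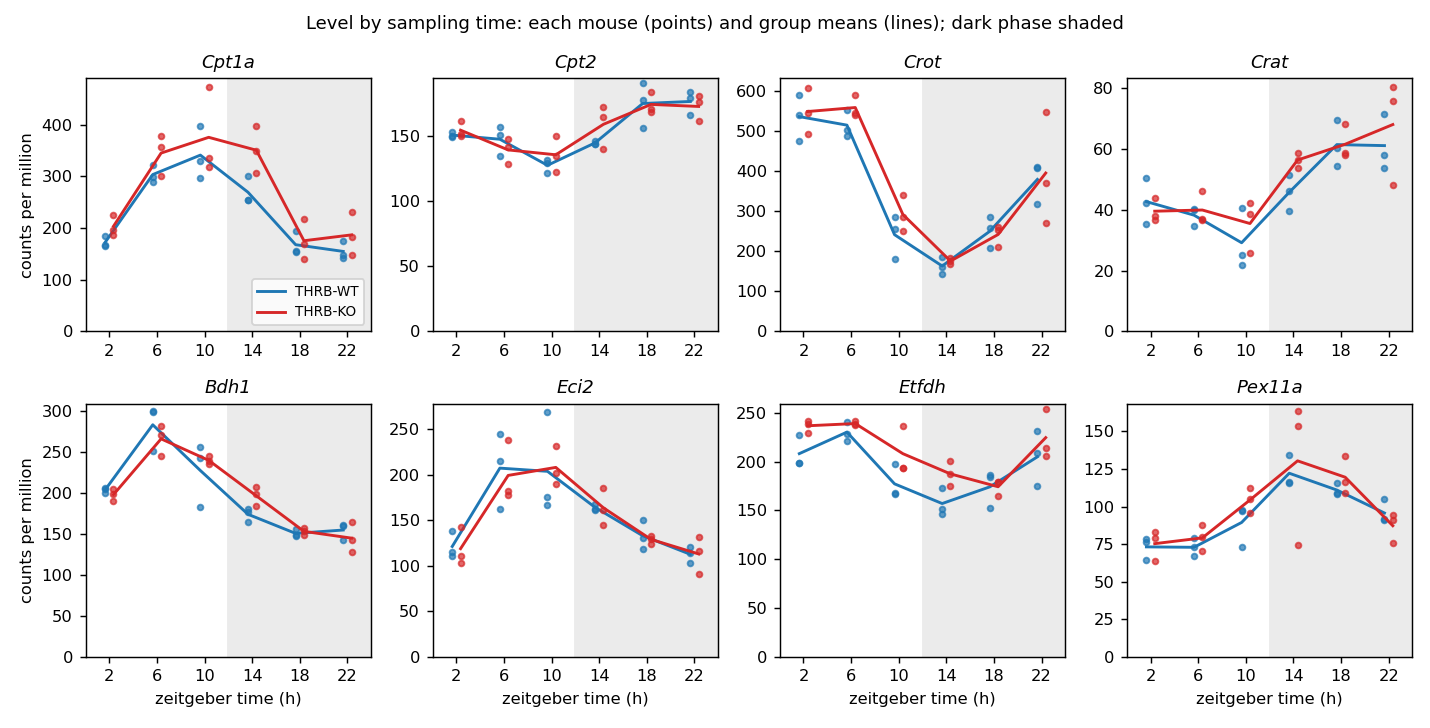
Expression in CPM over ZT (h) for Cpt1a, Cpt2, Crot, Crat, Bdh1, Eci2, Etfdh and Pex11a, where points are single mice (THRB-WT blue, THRB-KO red), lines join the means of 3 mice and the dark phase is shaded. Crot is highest at ZT2 and ZT6 and lowest at ZT14, Cpt1a is highest at ZT10, and Cpt2 is lowest at ZT10 in both genotypes.

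Among the other mitochondrial members, Etfdh, which passes electrons from the flavoprotein to ubiquinone, was highest at ZT6 in both genotypes (230 ± 9.86 CPM in THRB-WT, 239 ± 2.31 CPM in THRB-KO, SD, n = 3), with lowest means of 157 ± 13.7 CPM at ZT14 in THRB-WT and 174 ± 8.06 CPM at ZT18 in THRB-KO. The long-chain dehydrogenase Acadl had a small rhythm in both genotypes (amplitudes 0.16 and 0.18, edgeR adjusted p = 0.0112 and 0.00727). The dehydrogenases for shorter chains, Acadm and Acads, passed in THRB-WT at amplitudes of 0.12 and 0.10 (adjusted p = 0.0413 and 0.0366) and were at 0.11 and 0.10 in THRB-KO with adjusted p = 0.116 and 0.0652. The dienoyl-CoA reductase Decr1 passed in THRB-KO (amplitude 0.14, adjusted p = 0.0374) and had an amplitude of 0.09 in THRB-WT. These last 3 calls were each lost in several of the alternatives, as were those of the acyl-CoA dehydrogenase Acad11 in both genotypes. The remaining 8 mitochondrial members, among them both trifunctional protein subunits and the thiolase Acaa2, passed in neither genotype.

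The ketone body enzyme Bdh1, which interconverts acetoacetate and 3-hydroxybutyrate, was highest at ZT6 in both genotypes. Its THRB-WT mice were at 300, 299 and 251 CPM at ZT6 and at 147, 149 and 156 CPM at ZT18. Its THRB-KO mice were at 282, 271 and 245 CPM at ZT6 and at 142, 165 and 128 CPM at ZT22, so that the high and low times did not overlap in either genotype. The amplitude was 0.44 in both (edgeR adjusted p = 2.96e-09 and 5.09e-09). Acat1, the mitochondrial acetoacetyl-CoA thiolase, ranged from 303 to 402 CPM over the THRB-WT mice and from 301 to 392 CPM over the THRB-KO mice and passed the rhythm test in neither (adjusted p = 0.168 and 0.622).

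In peroxisomes, Pex11a, a membrane protein of peroxisome division, was highest at ZT14 in both genotypes. The THRB-WT mice were at 117, 134 and 115 CPM at ZT14 and at 78.8, 67.0 and 72.8 CPM at ZT6. The THRB-KO mice at ZT14 were at 163, 153 and 74.5 CPM, the last of which lay among the low values of the other times. Amplitudes were 0.39 in both genotypes, with peaks at ZT16.1 and ZT14.9. The thiolase gene Acaa1a had amplitudes of 0.22 and 0.28 and peaked at ZT10.7 and ZT11.6, whereas its neighbour and near-copy Acaa1b passed in THRB-KO (amplitude 0.32, peak ZT17.0, adjusted p = 0.0127) and not in THRB-WT (amplitude 0.14, adjusted p = 0.365). Transcripts of these genes are 96.6% identical over 1428 aligned bases, so their counts could be shared. The isomerase Eci2 of both organelles peaked at ZT9.56 and ZT9.66, beside the Cpt1a fits, with a cosine peak-to-trough fold that reached 1.88 in THRB-WT and 1.95 in THRB-KO.

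**Figure D2:**
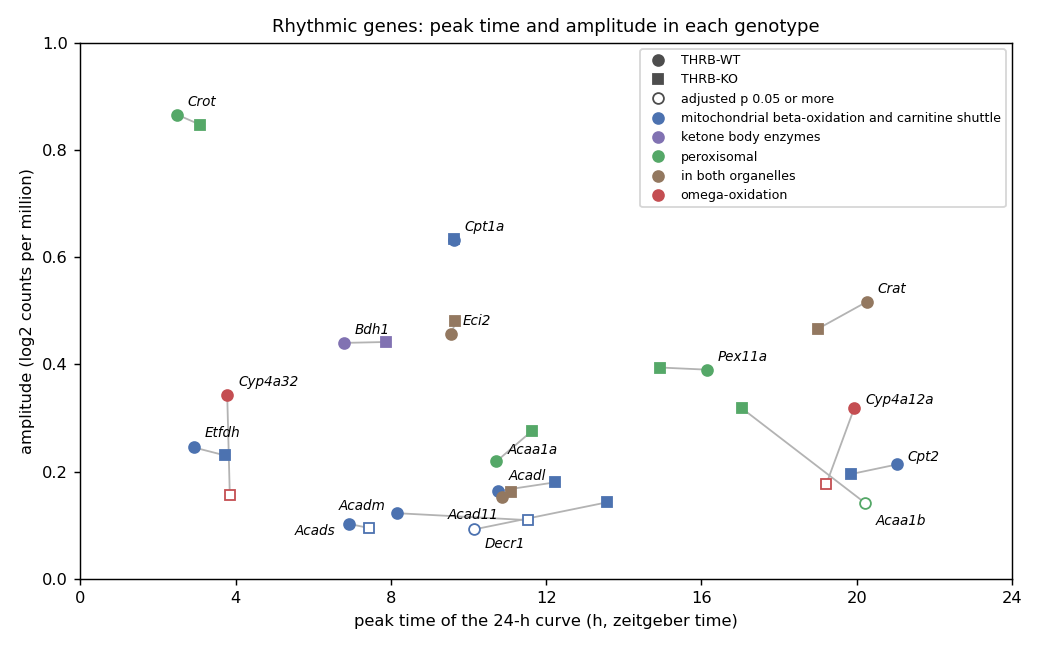
Fitted amplitude (log2 CPM) against fitted peak time (ZT, h) for the 17 members with a called rhythm in at least 1 genotype, with circles for THRB-WT, squares for THRB-KO and open symbols where the adjusted p is 0.05 or more. Crot at 0.87 and 0.85 and Cpt1a at 0.63 in both genotypes have the largest amplitudes, and the circle and square of a gene lie close together for most genes.

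In THRB-WT, 8 of the 15 rhythmic members (53.3%) peaked in the second part of the light phase, between ZT6 and ZT12, against 29.2% of all rhythmic genes. In THRB-KO 5 of 13 members (38.5%) peaked there, against 30.5% of all rhythmic genes. The THRB-WT share rests in part on calls that depended on the processing. Those of Acadl, Acadm, Acads, Acaa1a and Acad11 were lost in an alternative, while those of Cpt1a, Bdh1 and Eci2 were kept.

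Curves did not differ detectably between the genotypes. The test of the difference in sine and cosine terms called 0 members and 0 of all genes (0%), with 0 members and 553 genes (3.07%) under an unadjusted p of 0.05, and DESeq2 also called 0 genes. For the 11 members rhythmic in both genotypes, the THRB-KO peak was later for 8 and earlier for 3, with a median difference of 0.251 h. The median over all 4411 genes rhythmic in both was 0.391 h, with 65.8% later in THRB-KO. Bdh1 peaked 1.09 h later in THRB-KO (SE 0.505 h) and Acadl 1.45 h later (SE 1.36 h), while Crat, Pex11a and Cpt2 peaked 1.26 h (SE 1.001 h), 1.19 h (SE 0.974 h) and 1.17 h (SE 0.883 h) earlier. Cyp4a12a and Cyp4a32, called in THRB-WT with amplitudes of 0.32 and 0.34 (adjusted p = 0.0372 and 0.0294), had amplitudes of 0.18 and 0.16 in THRB-KO, and the difference of their curves did not pass the test either.

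Over all times, no member passed the test of genotype at an adjusted p under 0.05, where 171 genes (0.95%) passed in all. DESeq2 called 1 member, Hadh (2.94%), where it called 293 genes (1.63%) in all. The call depended on the model. An edgeR fit took the THRB-WT and THRB-KO mice of the same letter at a time as a pair. It called Cpt1a, Hadh, Etfdh, Acaa1a, Ehhadh and Cyp4a14 (adjusted p of 0.0100 to 0.0480). The labels do not describe the letter as a pairing, and the count over all genes in that fit is given in the last section. At an unadjusted p under 0.05, 11 members (32.4%) had higher values in THRB-KO, against 6.09% of all genes, and 1 member (2.94%) had lower values, against 5.96%. The members were chosen with earlier results of these data known, so these shares describe the list and do not test it. The median log2 difference (THRB-KO minus THRB-WT) over the 34 members was 0.06, with 26 on the higher side (76.5%), against a median of -0.00 and 49.5% over all genes. The group medians were 0.04 for the mitochondrial genes (13 of 15 on the higher side), 0.01 for the ketone body enzymes (2 of 2), 0.08 for the peroxisomal genes (5 of 8), 0.05 for the dual-organelle genes (2 of 4) and 0.43 for the omega-oxidation genes (4 of 5).

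**Figure D3:**
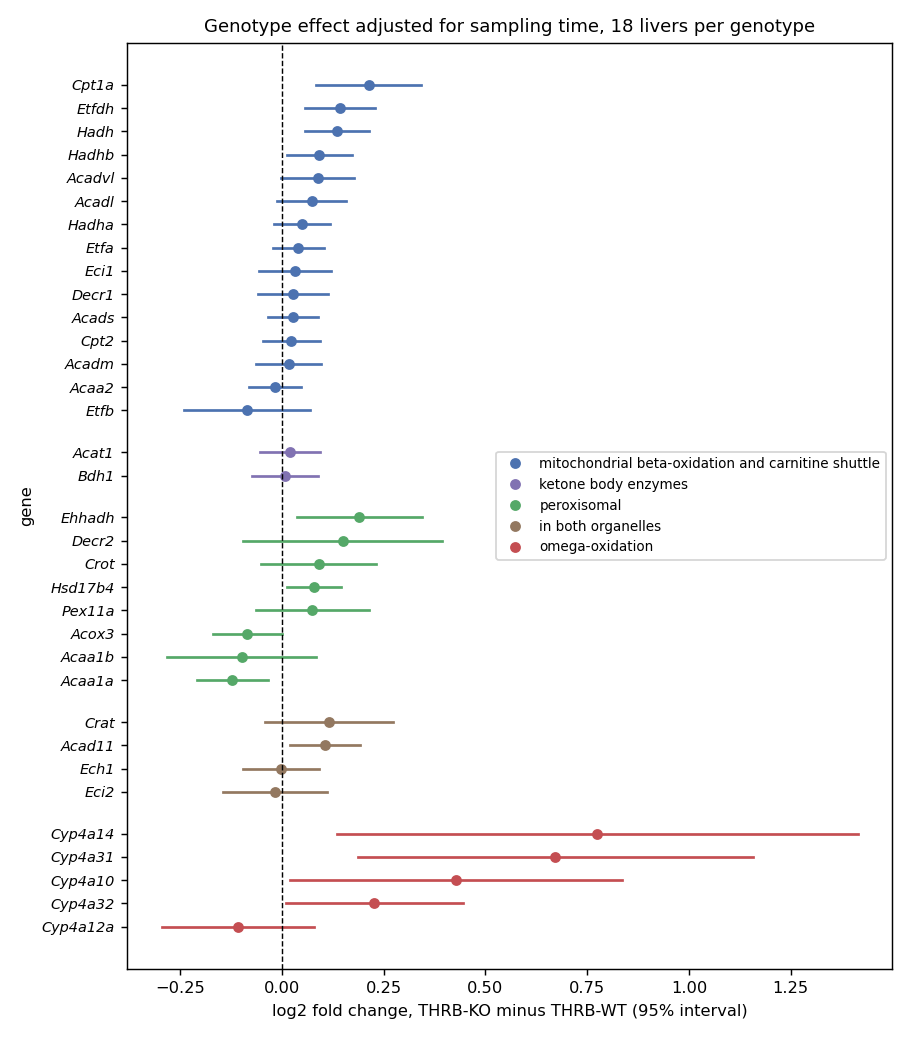
Log2 difference, THRB-KO minus THRB-WT adjusted for time, with 95% intervals for the 34 members, arranged by compartment. The intervals of 12 members exclude 0, all without passing the adjusted threshold, and the omega-oxidation genes have the widest intervals.

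In the mitochondrial group the 3 smallest p-values belonged to Hadh, Etfdh and Cpt1a. Hadh, which dehydrogenates short hydroxyacyl-CoA chains, ran from 236 through a median of 286 to 332 CPM in THRB-WT and from 266 through 309 to 373 CPM in THRB-KO. Etfdh ran from 147 through 192 to 241 CPM and from 165 through 210 to 254 CPM, and Cpt1a from 142 through 224 to 398 CPM and from 140 through 266 to 473 CPM. The ranges overlapped widely, and for each of these genes the THRB-KO mean was the higher one at 6 of 6 times. The log2 difference was 0.14 (SE 0.0384, edgeR adjusted p = 0.0813) for Hadh, 0.14 (SE 0.0423, adjusted p = 0.0981) for Etfdh and 0.21 (SE 0.0639, adjusted p = 0.109) for Cpt1a, that is 9.87%, 10.4% and 15.9% higher. Hadhb stood at 0.09 (SE 0.0391, adjusted p = 0.319) and its partner subunit Hadha, whose gene lies head to head with it 85 bases away on chromosome 5, at 0.05 (adjusted p = 0.608). The intervals of all 15 mitochondrial members lay between 0.847-fold and 1.27-fold.

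The ketone body enzymes had close to equal values in both genotypes. Bdh1 differed by 0.01 (adjusted p = 0.963) and Acat1 by 0.02 (adjusted p = 0.882), and both 95% intervals lay between 0.950-fold and 1.07-fold.

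Among the peroxisomal genes, members differed in sign. Acaa1a ran from 193 through 264 to 345 CPM in THRB-WT and from 176 through 254 to 289 CPM in THRB-KO, with a log2 difference of -0.12 (SE 0.0429, edgeR adjusted p = 0.200) and a lower THRB-KO mean at 6 of 6 times. The L-bifunctional enzyme Ehhadh, a classical PPARalpha target, ran from 203 through 264 to 426 CPM and from 257 through 305 to 484 CPM, with a difference of 0.19 (SE 0.0758, adjusted p = 0.280) and a higher mean at 5 of 6 times. Its D-specific counterpart Hsd17b4 ran from 346 through 405 to 472 CPM and from 388 through 426 to 478 CPM, with a difference of 0.08 (SE 0.033, adjusted p = 0.309). None of these passed. The rhythmic members Crot and Pex11a differed by 0.09 and 0.08 (adjusted p = 0.660 and 0.727), Acaa1b by -0.10 (adjusted p = 0.731) and Acox3 by -0.08 (adjusted p = 0.419). Intervals of the 8 peroxisomal members lay between 0.823-fold and 1.31-fold. Of the dual-organelle genes, Acad11 had the smallest p, with 152 through 211 to 252 CPM in THRB-WT, 199 through 220 to 293 CPM in THRB-KO and a difference of 0.11 (SE 0.0423, adjusted p = 0.276). Crat differed by 0.12 (adjusted p = 0.595), Eci2 by -0.02 (adjusted p = 0.950) and Ech1 by -0.00 (adjusted p = 0.990), with intervals between 0.905-fold and 1.21-fold.

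The omega-oxidation genes had the largest differences and the largest spread. Cyp4a14 ran from 25.2 through 59.7 to 270 CPM in THRB-WT and from 42.5 through 132 to 747 CPM in THRB-KO. Cyp4a10 ran from 40.1 through 92.5 to 206 CPM and from 76.9 through 111 to 503 CPM, and Cyp4a31 from 1.52 through 3.58 to 7.69 CPM and from 2.36 through 5.19 to 19.3 CPM. For these 3 genes the THRB-KO mean was higher at 6 of 6 times, yet the mice of both genotypes overlapped. The log2 differences were 0.78 for Cyp4a14 (SE 0.315, edgeR adjusted p = 0.296), 0.43 for Cyp4a10 (SE 0.200, adjusted p = 0.382), 0.67 for Cyp4a31 (SE 0.239, adjusted p = 0.209) and 0.23 for Cyp4a32 (SE 0.106, adjusted p = 0.380). Cyp4a12a, the most abundant member of the family in these male livers, ran from 230 through 486 to 615 CPM and from 310 through 425 to 635 CPM, with a difference of -0.11 (adjusted p = 0.704). The group's intervals lay between 0.816-fold and 2.67-fold.

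A single animal contributed much of the Cyp4a14 and Cyp4a10 means. THRB-KO mouse b at ZT22 had 747 CPM of Cyp4a14, where the next highest of all mice had 270 CPM, and 503 CPM of Cyp4a10, where the next had 206 CPM. It was also the highest for Ehhadh (484 CPM, next 426 CPM). The other 2 THRB-KO mice of that time were at 42.5 and 83.9 CPM of Cyp4a14. Without this mouse, chosen after the values were seen, the Cyp4a14 mean of the 17 other THRB-KO mice was 123 ± 49.7 CPM (SD) in place of 158 ± 155 CPM, its log2 difference moved from 0.78 to 0.46 (adjusted p = 0.588), and the median over the 5 omega-oxidation genes moved from 0.43 to 0.24. The THRB-WT mean was 90.8 ± 77.2 CPM (SD, n = 18), also with mice over 200 CPM at ZT6, ZT10 and ZT22. The one at ZT22 was THRB-WT mouse b, of the same letter, at 227 CPM of Cyp4a14 (others of its group 29.8 and 54.8 CPM). It was also the highest of its group for Cyp4a10 (172 CPM, others 57.0 and 98.3 CPM) and Ehhadh (357 CPM, others 304 and 236 CPM). Whether the letter links the mice is not stated in the labels.

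Sex-biased liver genes were read beside the Cyp4a values, since Cyp4a12a is itself male-biased. Of 10 male-biased genes 9 were on the lower side in THRB-KO and 1, Cyp4a12b, passed (median log2 difference -0.37, sums of 3141 to 19565 CPM in THRB-WT and 3954 to 17061 CPM in THRB-KO). Of 11 female-biased genes 7 were tested, all on the higher side, and 1 of them, Cyp2b9, passed (median 0.98, sums of 4.11 to 26.3 CPM and 6.19 to 127 CPM). Over all genes tested, 0.95% passed and 49.5% were on the higher side. THRB-KO mouse b at ZT22 was the lowest of the 18 THRB-KO mice for 7 of the 10 male-biased genes and the highest for 2 of the 7 female-biased genes. Their part in the Cyp4a values was not tested.

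**Figure D4:**
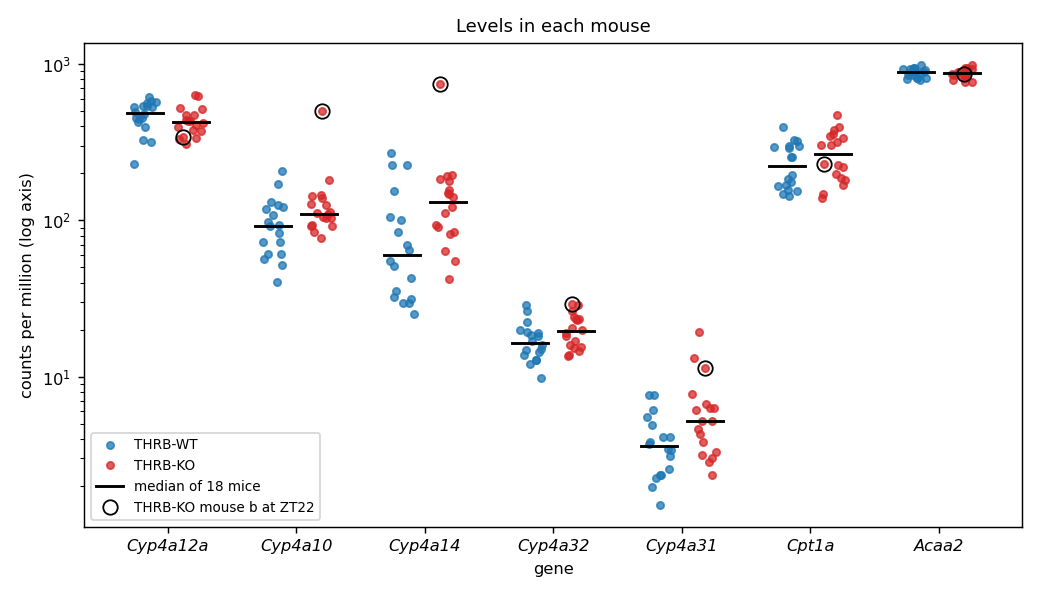
CPM of each mouse on a log axis for the 5 omega-oxidation members and, for comparison, Cpt1a and Acaa2, where bars are the medians of 18 mice per genotype and the circled point is THRB-KO mouse b at ZT22. Cyp4a14 spreads from 25.2 to 747 CPM, whereas Acaa2 stays within 764 to 992 CPM.

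The 5 Cyp4a members lie together on chromosome 4 between 115299046 and 115621602, within 323 kb (GRCm38). Transcripts of Cyp4a10 and Cyp4a32 are 97.2% identical over 1530 aligned bases and those of Cyp4a10 and Cyp4a31 96.0% identical over 1593 bases, so counts of these 3 genes could be divided between them. Cyp4a14 and Cyp4a10 are 76.8% identical.

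At single sampling times, with 3 mice per genotype sharing the spread of all 12 groups, no member passed at any time. The genes passing over the whole table made up 0.0278% at ZT2, 0.0111% at ZT6, 0.0167% at ZT10, 0.0167% at ZT14, 0.0222% at ZT18 and 0.0222% at ZT22. DESeq2 called 0 members at each time as well. At an unadjusted p under 0.05 there were 0, 0, 2, 7, 1 and 2 members from ZT2 to ZT22, all on the higher side in THRB-KO. The shares of all genes that were higher at that p were 2.58%, 1.88%, 1.96%, 3.03%, 2.7% and 2.33%, so that ZT14 stood furthest from it (20.6% of the members), while the other times held 0% to 5.88% of the members, from 0 to 2 genes each. The 7 members at ZT14 were Cpt1a, Acadl, Hadhb, Hadh, Etfdh, Hsd17b4 and Cyp4a31, each with an adjusted p of 0.919 or more by edgeR. Cpt1a at ZT14 was at 254, 301 and 254 CPM in THRB-WT and at 306, 349 and 398 CPM in THRB-KO, with no overlap and a log2 difference of 0.38. Cyp4a31 at ZT14 rested on 1 mouse, with 2.83, 5.18 and 19.3 CPM in THRB-KO against 2.25, 4.11 and 2.58 CPM in THRB-WT. The interaction of genotype and time, tested over 5 coefficients together, called 0 members and 0 of all genes (0%), with 0 members and 484 genes (2.69%) under an unadjusted p of 0.05 and 0 genes by DESeq2.

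Since the inducible Cyp4a genes varied most between mice of a group, their deviations from the own group's mean were compared over the 36 mice. Cyp4a14 was tested against 9 other members, with two-sided permutation within groups (100000 resamples) and Benjamini-Hochberg adjustment over the 9 relations. Each group was permuted on its own, which takes all mice as independent. Over many genes, however, the deviations of same-lettered mice of a time correlated at over 0.1 in 15 of 18 pairs. The permutation p-values may therefore be too small. Cyp4a10 moved most closely with it (Pearson r = 0.88, p = 6e-05, adjusted p = 0.00054, Spearman rho = 0.82, p = 0.00013, adjusted p = 0.000585). Acadm, the mitochondrial medium-chain dehydrogenase, followed (r = 0.74, p = 0.0005, adjusted p = 0.00225, rho = 0.75, p = 9e-05, adjusted p = 0.000585). A liver with more Cyp4a14 than the other livers of its group thus tended to have more Cyp4a10 and more Acadm. The relation with Cyp4a31 was weaker (r = 0.56, adjusted p = 0.0435, rho = 0.52, adjusted p = 0.0369), and that with Ehhadh passed by rank only (r = 0.60, adjusted p = 0.0510, rho = 0.54, adjusted p = 0.0369).

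The remaining 5 relations did not pass. Cyp4a32 had r = 0.47 (adjusted p = 0.0950), Cyp4a12a r = -0.47 (adjusted p = 0.0717), Crot r = 0.37 (adjusted p = 0.272), Cpt1a r = 0.30 (adjusted p = 0.230) and Pex11a r = -0.08 (adjusted p = 0.637). Without the 2 mice farthest from the Cyp4a14 median, THRB-KO mice a and b at ZT22, r was 0.84 for Cyp4a10 and 0.71 for Acadm, both still passing. It was 0.46 for Cyp4a31 (adjusted p = 0.119) and 0.51 for Ehhadh (adjusted p = 0.152), and their rho was 0.46 and 0.48 (adjusted p = 0.0878 for both), so neither call held without those mice although the values moved little. Without THRB-KO mouse b at ZT22 alone, rho was 0.39 for Cyp4a31 and 0.43 for Ehhadh (adjusted p = 0.161 for both). Without all mice of letter b, r was 0.67 for Cyp4a10 and 0.52 for Acadm (adjusted p = 0.370 for both). Without letter a, Cyp4a10 passed (r = 0.94, adjusted p = 0.0488) and Acadm did not (r = 0.84, adjusted p = 0.174). Both passed without letter c (adjusted p = 0.0342 and 0.0308).

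**Figure D5:**
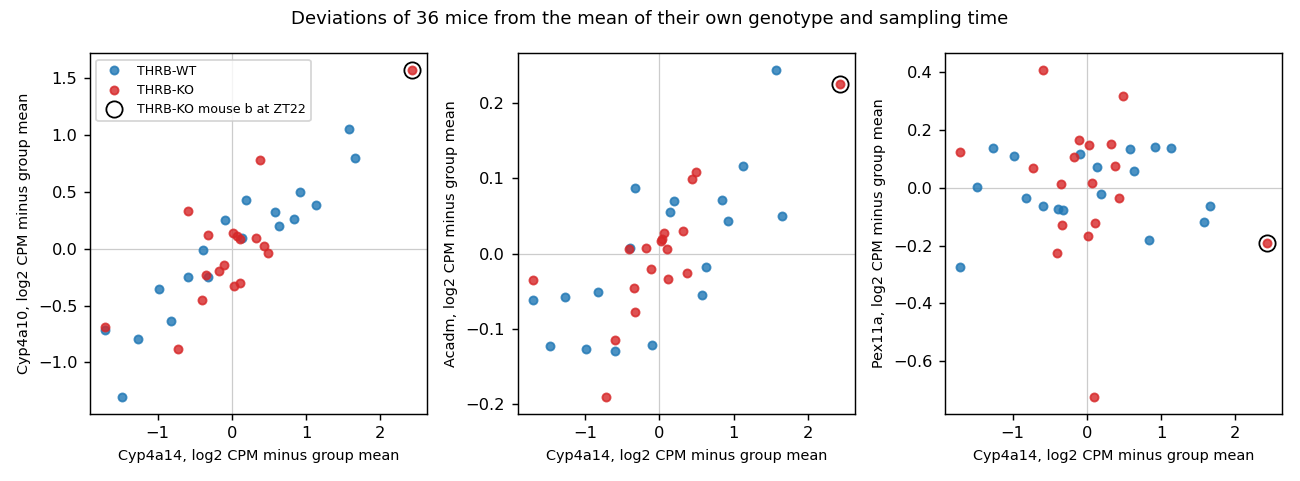
Deviations from the mean of the own genotype and time group (log2 CPM) for 36 mice, Cyp4a14 on the horizontal axes against Cyp4a10, Acadm and Pex11a on the vertical axes. Cyp4a10 and Acadm rise with Cyp4a14 (r = 0.88 and 0.74), and Pex11a shows no trend (r = -0.08).

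A further 62 genes of the same pathways, not among the members, were read for context, and 60 of them were tested. Of these, 4 passed the genotype test, against 0.95% of all genes. On the higher side were 32 and on the lower side 28, and the median log2 difference was 0.00. At an unadjusted p under 0.05 by edgeR, 8 were higher and 4 lower in THRB-KO, against 6.09% and 5.96% of all genes. By list, 0 of 12 mitochondrial and ketogenic genes, 3 of 22 peroxisomal genes, 1 of 10 omega-oxidation genes and 0 of 16 genes of PPARalpha, its partners and other targets passed. The peroxisomal calls were the very-long-chain transporters Abcd2 and Abcd3 and the branched-chain oxidase Acox2, all higher in THRB-KO, and the omega-oxidation call was Cyp4a12b, lower in THRB-KO.

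Abcd2 ran from 6.28 through 12.1 to 37.5 CPM in THRB-WT and from 8.40 through 32.0 to 62.7 CPM in THRB-KO, a log2 difference of 1.07 (SE 0.180, edgeR adjusted p = 0.000586). Abcd3 ran from 414 through 502 to 627 CPM and from 476 through 582 to 684 CPM (0.20, SE 0.0491, adjusted p = 0.0324). The spread of Abcd2 within each genotype was thus wide and its difference large, while Abcd3 differed little in relation to its level. Acox2 ran from 142 through 217 to 262 CPM and from 186 through 248 to 293 CPM (0.21, SE 0.0527, adjusted p = 0.0396), and its gene lies 9.40 Mb from Thrb, so that linked strain differences cannot be told apart from the genotype. Cyp4a12b ran from 43.2 through 99.4 to 127 CPM and from 30.7 through 54.1 to 112 CPM (-0.61, SE 0.158, adjusted p = 0.0498). It shares 98.2% of 2395 aligned transcript bases with the member Cyp4a12a, so reads could be divided between them. All 4 kept their side at 6 of 6 times, and Abcd3, Acox2 and Cyp4a12b were lost when the mice of any 1 letter, or THRB-KO mouse b at ZT22 alone, were left out, whereas Abcd2 was lost without letter c (adjusted p = 0.0577). Cyp4a12b was also lost with DESeq2's size factors (adjusted p = 0.05003).

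Of these 60 genes, 30 were rhythmic in THRB-WT, 32 in THRB-KO and 26 in both. The shares over all genes tested were 35.1%, 31.5% and 24.5%. The largest amplitudes in THRB-WT were those of the peroxisomal thioesterase Acot3 (1.68, and 1.62 in THRB-KO) and of Pdk4, the pyruvate dehydrogenase kinase (1.66 and 1.47), which peaked at ZT14.2 and ZT22.4 in THRB-WT and so at neither the Cpt1a nor the Crot time. The fasting hormone Fgf21 had amplitudes of 1.05 and 0.76 (adjusted p = 0.130 in THRB-KO), the coactivator Ppargc1b of 0.96 and 0.84, the peroxisomal lyase Hacl1 of 0.85 and 0.80, and Acacb, whose product malonyl-CoA inhibits Cpt1a, of 0.78 and 1.01. Acacb peaked at ZT21.1 in THRB-WT and ZT21.4 in THRB-KO, close to the Cpt2 peak and far from that of Cpt1a.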

How the data were processed

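Liver RNA (RIN over 6.5, poly-A selected, non-directional libraries) of 36 mice had been sequenced, mapped to GRCm38 with HISAT2 and counted per gene with featureCounts, and the authors deposited these raw counts in 1 table, together with gene lengths. Versions, annotation release and the treatment of reads with several matches are not given in the sources used here. The members, compartments and gene lists were chosen with earlier results of these data known.

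From the counts, genes with at least 100 counts over the 36 libraries were kept and fitted with edgeR 4.0.16 (R 4.3.3, limma 3.58.1, TMM scaling, quasi-likelihood F test), with Benjamini-Hochberg adjustment over all 17994 genes and a threshold of 0.05. The designs were genotype with time as a factor, 1 mean per genotype and time, their interaction, and a mean, sine and cosine (24 h) per genotype. Peak times and amplitudes are least-squares fits to log2 CPM (prior count 2), with delta-method SEs. Fold-change intervals cover 95%. TPM used the deposited gene lengths. Permutations used pandas 2.3.3, scipy 1.17.1, numpy 2.4.6 and Python 3.11.15. Transcripts (GENCODE M21) were aligned with blastn 2.17.0. Alternatives were DESeq2 1.42.0 and its size factors, filterByExpr, no filter, a block, each letter left out, time as a 5-df factor for rhythm and genotype alone. The block was each same-lettered pair of a time in the genotype test and the mouse letter in the other tests. An alternative without THRB-KO mouse b at ZT22 was chosen after seeing the data. The code was tested on simulated data. Libraries of 29063273 to 42530551 counts leave the spread between mice, not counting error, as the limit for all but the lowest members. Groups came from the sample labels, which name separate mice and no batch.

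Any member could be named. Full statistics were given for the members of smallest p up to 10 in the genotype test. Values by mouse or group could be given for the 3 members of largest THRB-WT amplitude per compartment, and not all were printed (Decr2 was left out). Of the other pathway genes, values were given for those passing the genotype test and the 6 of largest THRB-WT amplitude. Values of THRB-KO mouse b at ZT22 and of Decr1, Acadm, Acads and Acaa1b stand outside this rule and were chosen after their values were seen. Ranges or SEs of Cyp4a10, Cyp4a12a and Cyp4a32 in the genotype test also stand outside it.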

Additional observations from a re-analysis of the deposited data

How the results depend on the processing

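The count of members passing the genotype test was 0 and became 1 with DESeq2 (Hadh, adjusted p = 0.0378). Over all genes the 171 calls became 293 with DESeq2 and 65 with genotype alone, 143 without THRB-KO mouse b at ZT22, and 40 to 81 when the mice of 1 letter were left out. With each of the 18 same-lettered pairs of a time as a block, the calls became 387 over all genes and 6 among the members. The adjusted p in this edgeR fit was 0.0232 for Cpt1a, 0.0266 for Hadh, 0.0100 for Etfdh, 0.0463 for Acaa1a, 0.0480 for Ehhadh and 0.0237 for Cyp4a14. The labels do not say that a letter pairs mice. The numbers in the names of the count columns lie close together for several same-lettered pairs of a time, and their meaning is not stated. Deviations of same-lettered mice of a time correlated at over 0.1 in 15 of 18 pairs (-0.0944 to 0.416 over 8364 genes). The own letter correlated best in 16 of 18. These are hints from the data and the column numbers, not a stated design.

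Leaving out 1 letter gave 3750 to 4486 rhythmic genes in THRB-WT (from 6315) and 3050 to 4036 in THRB-KO (from 5675), with 10 to 12 members in THRB-WT and 10 to 11 in THRB-KO. Without THRB-KO mouse b at ZT22 they were 6377 and 5590 genes. With time as a 5-df factor the members were 10 and 11. The rhythm calls lost in at least 1 alternative were those of Acaa1a, Acad11, Acadl, Acadm, Acads, Cyp4a12a and Cyp4a32 in THRB-WT and of Acaa1b, Acad11, Acadl and Decr1 in THRB-KO.

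Leaving out 1 letter, the correlation with Cyp4a14 ran from 0.67 to 0.94 for Cyp4a10, 0.52 to 0.84 for Acadm, 0.29 to 0.73 for Cyp4a31, 0.13 to 0.72 for Ehhadh, -0.68 to 0.10 for Cyp4a12a and -0.29 to 0.080 for Pex11a. Without the 2 farthest mice it was 0.46 for Cyp4a31 and 0.038 for Pex11a, and without THRB-KO mouse b at ZT22 it was 0.42 (adjusted p = 0.206) and 0.042. The cause of these changes was not tested. Groups of 3 mice limit each single time.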
